A study of Mus musculus with 12 samples.

Results

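The CLK kinases and SR splicing factors described here were 10 genes, taken by symbol from the 35976 genes of the retinal count table. They comprised the kinases Clk1, Clk2 and Clk4, the SR proteins Srsf2, Srsf3, Srsf5, Srsf6, Srsf7 and Srsf11, and Rnpc3 of the minor spliceosome. The kinases and SR proteins are splicing regulators, and part of their own transcripts is known to keep introns and stay in the nucleus. Rnpc3 was taken with them as a gene of the minor spliceosome. The 10 genes were selected on these grounds with earlier group differences of the same counts in view. The values that chose them were thus their own differences between groups, and no comparison is known to have been left out of that choice. All comparisons of the 10 genes between groups are therefore descriptions, with fold changes and standard errors. Where members that passed a threshold are counted, the count stands beside the share of all genes that passed, and nothing is read from it. All 10 had at least 10 counts in every library, so no low-count filter removed one of them.

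Gene expression was measured in mouse retinas in a model of oxygen-induced retinopathy (OIR), in which pups breathe high oxygen, lose part of the retinal vasculature and become relatively hypoxic on return to room air. The 4 groups of 3 libraries were retinas labelled C57BL/6 (WT) in normoxia, C57BL/6 in OIR, Caspase1 KO in normoxia and Caspase1 KO in OIR. OIR pups were kept in 75% oxygen from postnatal day 7 to day 12 and then in room air for 3 days, and the normoxia pups stayed at 21% oxygen. The study's methods give day 15 and pups of both sexes for the C57BL/6 retinas, and describe no Caspase1 KO retinas, so the age, the allele and the breeding of the Caspase1 KO pups are not given in the sources used here. The labels do not say how many animals or retinas went into each library, so the spread that the tests rest on may be technical. It is a spread between these libraries only, and the fit shares it in part across genes.

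CLK kinases phosphorylate the serine- and arginine-rich tails of SR proteins, which releases SR proteins from nuclear speckles and lets them guide splice-site choice. The genes of both families limit their own output: part of their transcripts keeps an intron or a poison exon and stays in the nucleus or is degraded, and Clk1 and Clk4 are textbook cases of such detained introns, which are spliced out when CLK activity falls. Rnpc3 encodes the U11/U12-65K protein, which joins the U11 and U12 RNAs of the minor spliceosome, the machinery that removes the rare U12-type introns. The libraries held tags from near the polyadenylated end of each RNA, so they counted spliced and intron-retaining transcripts with the same end together.

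The reference annotation on GRCm38 was read for such transcripts of the members. The kinases and SR proteins were chosen as genes known to keep introns. A high share among the members was thus built into the choice, and the shares below are descriptions only. All 10 members had at least 1 annotated retained-intron transcript, against 41.6% of 21924 protein-coding genes. At least 3 such transcripts were annotated for 7 of the 10, against 13.9% of protein-coding genes. A transcript marked for nonsense-mediated decay was annotated for 9 of the 10, against 20.9%. Clk1 and Clk4 each had 7 retained-intron transcripts, Clk2 had 4, Srsf11 had 11, Srsf3 had 4, Srsf5 and Srsf7 had 3 each, and Srsf2, Srsf6 and Rnpc3 had 1 each. For Srsf11 and Rnpc3, none of the 12 and 14 introns of the main transcript lay whole inside an exon of such a transcript. For Clk1, Clk2 and Srsf2, 1 retained-intron transcript ended within 100 bases of the main transcript's end, for Srsf5 3 did and for the other 6 members none did. For those 4 genes, tags near that end cannot separate the spliced from the intron-retaining form. The counts used here were given per gene, so they do not separate these forms for any of the 10 members.

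In Clk1, Clk2 and Clk4 the introns on both sides of exon 4, introns 3 and 4 of the main transcript, lay inside exons of annotated retained-intron transcripts. Their 5′ splice sites are shown because they mark the introns that the kinase transcripts can keep. Each line gives 6 bases of exon and 14 of intron, 5′ to 3′ on the gene's strand, with the first 2 intron bases in capitals.
Clk1 intron 3, chr1:58420212-58421082, minus strand: cacgggGTatgagtgccttt
Clk4 intron 3, chr11:51272023-51273077, plus strand: cattcgGTatgagtggtttg
Clk2 intron 3, chr3:89168924-89169617, plus strand: tcttcaGTgagtgccagccc
Clk1 intron 4, chr1:58419734-58420120, minus strand: caagatGTatagaatatttt
Clk4 intron 4, chr11:51273169-51273559, plus strand: caagatGTatagaatatttt
Clk2 intron 4, chr3:89169703-89170048, plus strand: agcgatGTacaagccaaatc
The sites of intron 4 were the same 20 letters in Clk1 and Clk4 and differed in Clk2.

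Rnpc3 carries a different feature. The U11 particle recognises the 5′ ends of U12-type introns, and a tandem pair of such 5′ splice-site sequences in the non-coding 3′ part of Rnpc3, and in an alternative exon of Snrnp48, is known to bind U11 and to restrain the 2 genes. The letters ATATCCTT or GTATCCTT were searched on the transcript strand. At least 1 match was present in 3417 of 55341 genes with a transcript sequence (6.17%) and in 3 of the 10 members, while only 4 genes had 2 matches that started within 20 bases of each other. These were Rnpc3, Snrnp48, Slc8a1 and Vmn2r17. The Rnpc3 and Snrnp48 pairs are shown with each match in capitals.
Rnpc3, protein-coding transcripts, chr3:113607236-113607257, minus strand: tGTATCCTTtcttGTATCCTTt
Snrnp48, retained-intron transcript, chr13:38214667-38214694, plus strand: aGTATCCTTtttgcaaatgATATCCTTt
The starts of the matches were 12 bases apart in Rnpc3 and 18 bases apart in Snrnp48.

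Library totals ran from 3391203 to 5657873 counts, apart from WT normoxia replicate 2 with 22815830, and a count of 0 allowed a level of up to 0.131 to 0.885 CPM (counts per 1000000 counted reads). Markers of retinal cells were present in every library: the 3 Muller glia markers Rlbp1, Glul and Slc1a3 together reached 1110 to 1746 CPM and the 3 cone markers Opn1sw, Arr3 and Gnat2 reached 621 to 774 CPM. Casp1 itself went against the labels, with 7 counts over the 6 libraries labelled WT and 126 over the 6 labelled Casp1 KO. A 3′ tag outside the deleted part could give counts in KO retinas, and it bears only on the KO-labelled libraries. Why Casp1 was low in the WT-labelled ones was not tested, and the groups are called by their labels throughout. If the 2 genotype labels were exchanged, every direction given here as KO-labelled against WT-labelled would turn, and that cannot be told apart here. WT OIR replicate 3 stood apart from the other 2 libraries of its group (chi-square per degree of freedom over genes of at least 13.2, against 3.48 to 9.34 for every other pair within a group), so the members' results that rest on it are given with and without it. Markers of other cells also moved with the groups: the summed level of 4 oligodendrocyte markers was 172 to 223 CPM in WT-labelled normoxia and 21.7 to 38.0 CPM in the other 3 groups. The Muller glia markers summed to 1634 to 1746 CPM in WT-labelled normoxia, 1110 to 1188 in WT-labelled OIR, 1139 to 1286 in KO-labelled normoxia and 1563 to 1630 in KO-labelled OIR. The 3 ganglion cell markers summed to 1439 to 1626, 749 to 956, 1631 to 1746 and 945 to 985 CPM in the same order.

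Among the kinases, Clk1 had the widest range. In normoxia Clk1 stood at 186, 185 and 210 CPM in the libraries labelled WT and at 168, 152 and 156 CPM in those labelled Casp1 KO. In OIR it stood at 245, 229 and 90.5 CPM in the WT-labelled libraries and at 93.8, 118 and 99.1 CPM in the Casp1 KO-labelled ones. The 3 KO-labelled OIR libraries were below every other library except WT OIR replicate 3, which was the lowest of all 12. By group mean the order was WT normoxia, WT OIR, KO normoxia and KO OIR, and only the last pair of neighbours did not overlap.

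Clk4, the closest relative of Clk1, had a smaller range. Clk4 stood at 69.3, 62.3 and 74.6 CPM in WT-labelled normoxia and at 91.6, 105 and 44.7 CPM in WT-labelled OIR. Clk4 stood at 76.8, 92.4 and 82.8 CPM in KO-labelled normoxia and at 60.5, 67.4 and 71.0 CPM in KO-labelled OIR. The KO-labelled groups did not overlap, while every pair of neighbours in the order of group means (KO normoxia, WT OIR, WT normoxia, KO OIR) did. Clk2, which is known for a role in metabolic signalling besides splicing, ranged upward from 11.7 CPM by a ratio of 1.79 over the 12 libraries, on 51 to 401 counts, and all its neighbouring groups overlapped.

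Among the SR proteins, Srsf5 varied most. It stood at 94.5, 68.2 and 92.8 CPM in WT-labelled normoxia and at 122, 161 and 79.1 CPM in WT-labelled OIR. It stood at 114, 105 and 115 CPM in KO-labelled normoxia and at 58.9, 86.3 and 95.2 CPM in KO-labelled OIR. Its highest library was 2.73 times its lowest, beside 2.71 times for Clk1 and 2.79 times for Rnpc3. In the order of group means, WT OIR, KO normoxia, WT normoxia and KO OIR, only KO and WT normoxia were neighbours that did not overlap.

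The other SR proteins spanned less. Srsf3, which couples splicing to RNA export and limits its own level through a poison exon, had the narrowest range of the 10, from 152 to 186 CPM, a ratio of 1.23. Srsf11, which binds near the branch-point machinery, ranged from 298 to 395 CPM (ratio 1.33) and Srsf2, a general exon-enhancer binding protein, from 86.7 to 125 CPM (ratio 1.44). Srsf6 ranged from 56.3 to 99.4 CPM (ratio 1.76) and Srsf7, which like Srsf3 acts in RNA export, from 82.5 to 159 CPM (ratio 1.92). For Srsf6 and Srsf7 both ends of the range lay in WT-labelled OIR, the low end in replicate 3 and the high end in replicate 2. No pair of neighbouring group means of these 5 genes was free of overlap.

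Rnpc3 had the widest range. Its level was 264, 231 and 243 CPM in WT-labelled normoxia and 431, 428 and 154 CPM in WT-labelled OIR. Its level was 282, 272 and 249 CPM in KO-labelled normoxia and 182, 169 and 179 CPM in KO-labelled OIR. WT OIR replicates 1 and 2 were the highest of the 12 libraries, replicate 3 of the same group was the lowest, and the KO-labelled OIR libraries lay between that library and all of normoxia.

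**Figure D1:**
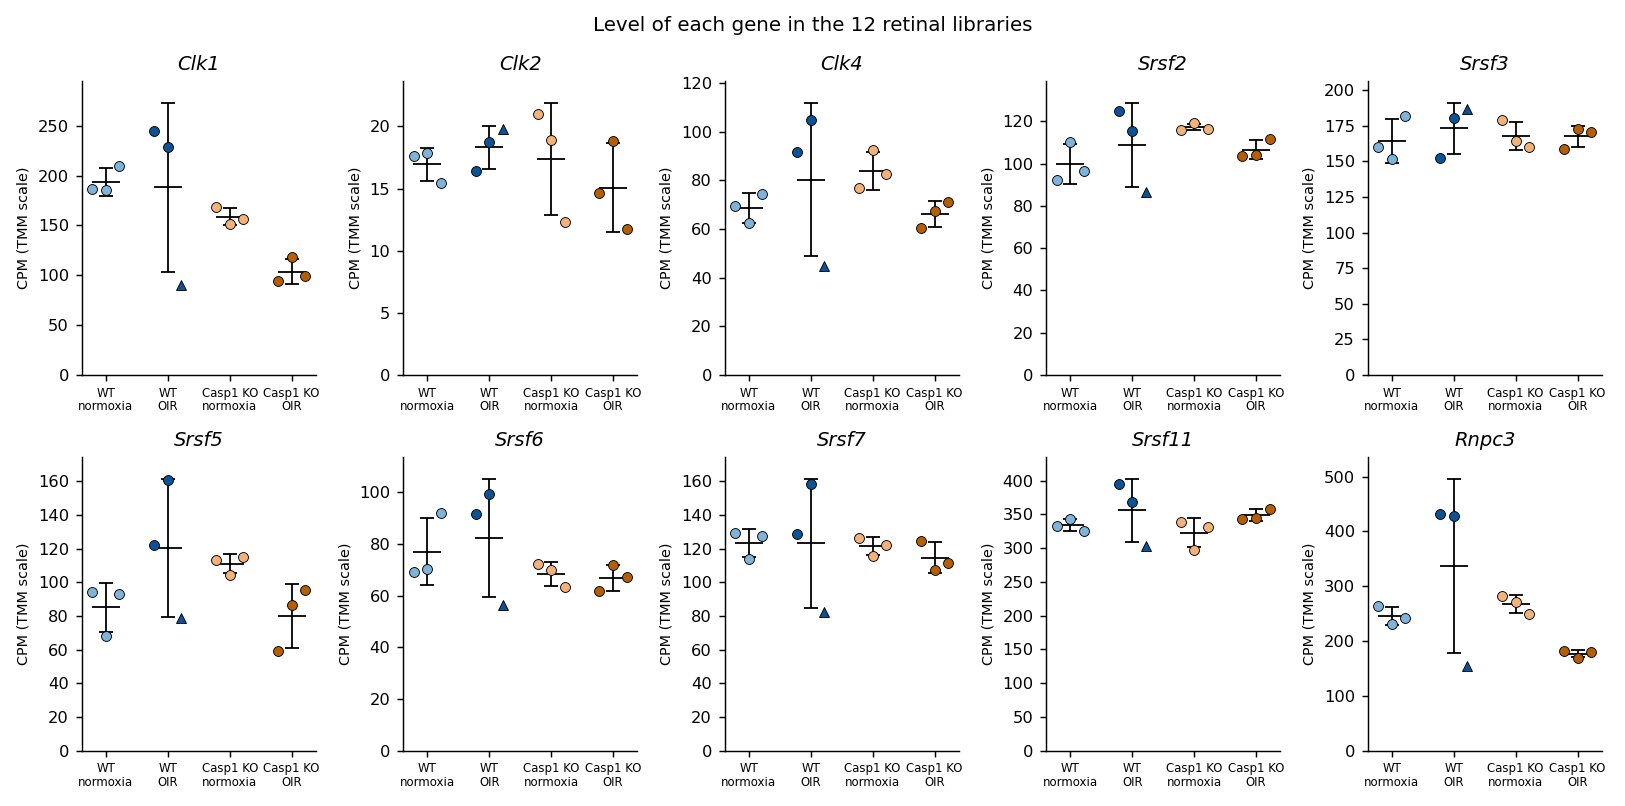
Level of the 10 genes in each of the 12 libraries, in CPM on the TMM scale, with 1 panel per gene and the 4 groups on the horizontal axis. Points are libraries in replicate order, the triangle is WT OIR replicate 3, and the line and bars are the group mean and SD (n = 3). Clk1, Clk4, Srsf2, Srsf5 and Rnpc3 were lower in every KO-labelled OIR library than in any of KO-labelled normoxia. WT OIR replicate 3 lay under the other 2 libraries of its group in 8 of the 10 panels.

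Counts assigned to Rnpc3 need care, since its last exon shares 1128 bases with the neighbouring gene Amy1 on the same strand. Amy1 was at 49.5, 58.4 and 19.3 CPM in WT-labelled OIR and at 31.9 to 39.1 CPM in WT-labelled normoxia. It was at 16.9 to 28.7 CPM in KO-labelled OIR and at 31.6 to 34.1 CPM in KO-labelled normoxia. Replicate 3 was thus the lowest WT-labelled OIR library for both genes, and how reads were shared between them was not tested. The last exon of Srsf2 shares 460 bases with Mettl23 on the opposite strand, and the strand setting of the counting is not given in the sources used here. The genes that overlap Clk4 and Srsf11 do not reach their last exons.

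The first comparison asked how OIR changed the members in the WT-labelled retinas. Rnpc3 had a log2 fold change of 0.45 ± 0.13 (SE) and Srsf5 one of 0.50 ± 0.15, OIR against normoxia, and these 2 members passed the threshold of adjusted p under 0.05 (edgeR quasi-likelihood test). In the same comparison 3.88% of all genes tested passed. The standard errors come from a fit that shares spread across genes, so they can be smaller than a gene's own spread. Rnpc3 had an SD of 159 CPM around a mean of 338 CPM in WT-labelled OIR. The kinases had fitted values of 0.22 ± 0.16 for Clk4, 0.10 ± 0.27 for Clk2 and -0.05 ± 0.13 for Clk1, and the remaining 5 SR proteins lay between -0.01 and 0.11. The members' median log2 fold change was 0.09, against 0.04 over all genes tested. Leaving out 1 WT-labelled OIR library moved this median to 0.06 for replicate 1, 0.05 for replicate 2 and 0.27 for replicate 3. No member had groups that did not overlap, where 16.7% of all genes did. In the same comparison 2 of the 3 Muller glia markers, 2 of the 3 ganglion cell markers and 3 of the 4 oligodendrocyte markers fell. So did 1 marker each of cones, bipolar cells, amacrine cells and pigment epithelium. By contrast 2 of the 3 red blood cell markers and 1 of the 3 endothelial markers rose. The part of these markers in the members' values was not tested.

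With DESeq2 or with either filter on low counts, 0 members passed. The same held without WT normoxia replicate 2 or 3 or WT OIR replicate 1 or 2, and without WT normoxia replicate 1 there was 1. Over all genes, 705 of 22853 passed with DESeq2 and 586 of 13696 with edgeR's filter on expression. With at least 10 counts in every library it was 603 of 11678. Without WT normoxia replicate 1, 2 or 3, 545 of 22382, 580 of 22375 and 581 of 22526 passed. Without WT OIR replicate 1 or 2, 784 of 22313 and 682 of 22169 passed.

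The values turned on 1 library. WT OIR replicate 3 was the lowest of its group for 8 of the 10 members, all but Clk2 and Srsf3, where 39.3% of the 11039 genes with at least 10 counts in every library were lowest there. Its median deviation from the members' own means was -0.34 on the log2 scale, against 0.27 and 0.43 in replicates 1 and 2. Without it, Rnpc3 reached 0.80 ± 0.10, Srsf5 0.74 ± 0.13 and Clk4 0.51 ± 0.15, and these 3 members passed the threshold, as did 5.04% of all genes. Clk1 turned from -0.05 to 0.28 ± 0.11, and 6 members lay above all 3 normoxia libraries in both remaining OIR libraries, where 16% of all genes did.

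Other RNAs were also unusual in that library. The 8 nuclear long noncoding RNAs of the list summed to 5970 CPM in WT OIR replicate 3 and to 12148 and 13559 CPM in replicates 1 and 2. The 19 SR-related proteins summed to 7061 CPM against 9872 and 9686, while the 29 hnRNP and related proteins summed to 5162 CPM against 4492 and 4647. The 3 red blood cell markers summed to 73.1 CPM against 209 and 305, the 3 endothelial markers to 24 CPM against 68.6 and 65.2, and the 4 lens markers to 201 CPM against 438 and 358. Their part in the members' low level was not tested.

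In the KO-labelled retinas the leading members had fitted values below 0. Clk1 had a log2 fold change of -0.60 ± 0.11, Rnpc3 one of -0.59 ± 0.09 and Srsf5 one of -0.46 ± 0.12, OIR against normoxia. These 3 members passed the threshold, as did 4.64% of all genes tested. Clk4 at -0.32 ± 0.14 and Srsf2 at -0.13 ± 0.12 did not pass, although for both all 3 OIR libraries lay below all 3 normoxia libraries, as they did for Clk1, Rnpc3 and Srsf5. For Srsf11 all 3 OIR libraries lay above those of normoxia, with a fitted value of 0.12 ± 0.08. Groups did not overlap for 17.1% of all genes.

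Clk2 at -0.20 ± 0.28, Srsf7 at -0.07 ± 0.11, Srsf6 at -0.02 ± 0.14 and Srsf3 at 0.01 ± 0.10 overlapped between the KO-labelled groups. The members' median was -0.16, against -0.002 over all genes tested, and it was -0.09 without KO normoxia replicate 1. Summed over the 10 members, the level was 1405 to 1493 CPM in KO-labelled normoxia and 1202 to 1276 CPM in KO-labelled OIR.

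**Figure D2:**
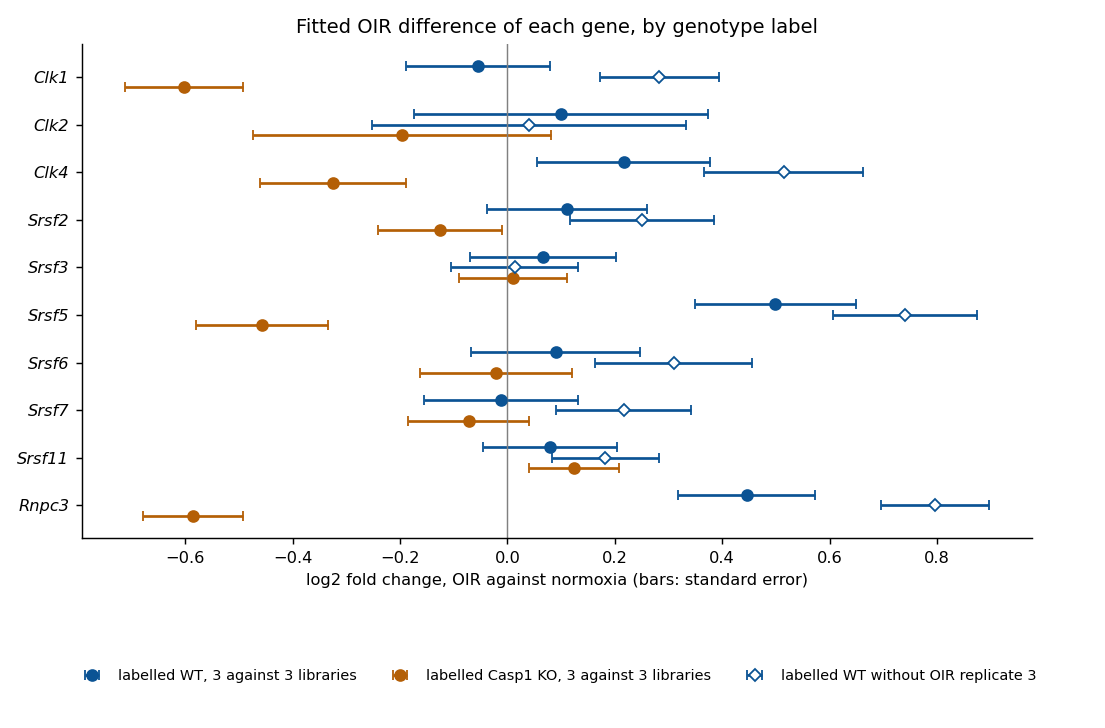
Fitted log2 fold change of each of the 10 genes, OIR against normoxia, with 1 row per gene and bars for the standard error. Blue circles are the WT-labelled retinas (3 against 3 libraries), open diamonds the same without OIR replicate 3, and orange circles the KO-labelled retinas. For Clk1, Clk4, Srsf5 and Rnpc3 the open diamonds lie at 0.28 to 0.80 and the orange circles at -0.60 to -0.32, while the 3 values of Srsf3 lie within 0.07 of 0.

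Lens and pigment epithelium markers were high in the same KO-labelled OIR libraries in which Clk1, Clk4, Srsf2, Srsf5 and Rnpc3 lay below KO-labelled normoxia. The 4 lens markers summed to 549 to 632 CPM there, against 322 to 338 CPM in KO-labelled normoxia, and 3 of the 4 passed the threshold. The 4 pigment epithelium markers summed to 908 to 988 CPM against 609 to 625 CPM, and 2 of the 4 passed. All 3 Muller glia markers rose and 1 of the 3 ganglion cell markers fell, at the sums given above. Of the 5 rod markers 2 rose and 1 fell, and of the 3 cone markers 1 rose and 1 fell. The part of these markers in the members' difference was not tested. In whole-retina RNA fewer cells of a type and less RNA per cell cannot be told apart.

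In normoxia 0 members passed the threshold in edgeR, where 1.04% of all genes did. An unadjusted p under 0.05 was given to 4 members and to 8.63% of all genes, and in DESeq2 1 member, Srsf5, passed, as did 1.98% of all genes. Clk1 had a log2 fold change of -0.28 ± 0.10, KO-labelled against WT-labelled, with no overlap between the groups. Srsf5 at 0.40 ± 0.12, Clk4 at 0.30 ± 0.13 and Srsf2 at 0.23 ± 0.11 were higher in all 3 KO-labelled libraries than in any WT-labelled one. The other 6 members overlapped and had fitted values between -0.16 and 0.13, and the median over the 10 was 0.04, against 0.01 over all genes. It turned to -0.03 without KO normoxia replicate 1 and was 0.13 without KO normoxia replicate 3. Groups did not overlap for 12.4% of all genes. No lens, pigment epithelium, red blood cell or endothelial marker was at 0 in a whole group. All 4 oligodendrocyte markers were lower in the KO-labelled normoxia libraries, at the sums given above and with Mog at 0 in all 3. Also lower there were 2 of the 3 Muller glia markers and 2 of the 3 bipolar cell markers. The part of these markers in the members' values was not tested.

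In OIR all 10 members had a fitted value below 0, KO-labelled against WT-labelled. Rnpc3 had a log2 fold change of -0.93 ± 0.13, Clk1 one of -0.86 ± 0.14 and Srsf5 one of -0.59 ± 0.15, and these 3 passed the threshold, as did 0.575% of all genes. The other 7 lay between -0.30 and -0.03, and the median was -0.28, against -0.04 over all genes. Without WT OIR replicate 2 the median was -0.08, and without WT OIR replicate 3 it was -0.41. No member had groups that did not overlap, where 11.9% of all genes did, and for 8 of the 10 WT OIR replicate 3 lay within or below the KO-labelled range. In this comparison 3 of the 4 lens markers, 3 of the 4 pigment epithelium markers and 1 of the 3 Muller glia markers were higher. Lower were 2 of the 3 red blood cell markers and 1 of the 3 endothelial markers. The median log2 fold change was 0.94 for lens, 0.63 for pigment epithelium, -1.13 for red blood cells and -1.03 for endothelium. The part of these markers in the members' values was not tested.

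The number of members that passed changed with the setting. With genes of at least 10 counts in every library, with edgeR's filter on expression or with DESeq2, 0 members passed. Over all genes, 17 of 11581, 16 of 13435 and 82 of 22774 passed in these settings, in that order. Without WT OIR replicate 3, 5 passed, as did 3.65% of all genes: Rnpc3 at -1.27 ± 0.11, Clk1 at -1.18 ± 0.13, Srsf5 at -0.81 ± 0.14, Clk4 at -0.55 ± 0.15 and Srsf6 at -0.50 ± 0.16. All 3 KO-labelled libraries then lay below the remaining 2 WT-labelled ones for 8 members, all but Clk2 and Srsf3, and for 15% of all genes.

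The last comparison asked whether the OIR difference itself differed between the labels, in a model over the 12 libraries. The difference, KO-labelled minus WT-labelled, was -1.05 ± 0.16 for Rnpc3 and -0.98 ± 0.19 for Srsf5, and these 2 members passed the threshold, as did 1.13% of all genes. It was -0.57 ± 0.17 for Clk1 and -0.57 ± 0.21 for Clk4, and for the other 6 members it lay between -0.32 and 0.02. The members' median was -0.29, against -0.04 over all genes. With DESeq2 or with either filter on low counts 0 members passed. Over all genes, 225 of 24484 passed with DESeq2 and 139 of 14287 with edgeR's filter on expression. With at least 10 counts in every library it was 152 of 11039. Without WT OIR replicate 3 there were 4 members, beside 2.46% of all genes. These were Rnpc3 at -1.40 ± 0.14, Srsf5 at -1.22 ± 0.18, Clk1 at -0.91 ± 0.15 and Clk4 at -0.86 ± 0.20. The same difference was above 0 past the threshold for 2 of the 3 Muller glia, 3 of the 4 lens and 2 of the 4 pigment epithelium markers. It was also above 0 for 3 of the 4 oligodendrocyte markers and for 1 marker each of bipolar and amacrine cells. It was below 0 for 1 of the 3 red blood cell markers. The part of these markers in the members' values was not tested.

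The members were next set beside 72 other splicing genes in 5 lists and beside 8 nuclear long noncoding RNAs. The lists were drawn up by function with earlier results of these counts known, and adjusted p-values are over all genes. Of the 7 other SR proteins (Srsf1, Srsf4, Srsf9, Srsf10, Srsf12, Tra2a and Tra2b), 0 passed the edgeR threshold in any of the 5 comparisons, and 0 passed in DESeq2. With unadjusted p under 0.05 in edgeR there was 1 of the 7 in WT-labelled OIR and there were 2 in OIR between the labels. Of the 5 other kinases of SR proteins, Prpf4b, a kinase of the spliceosome, fell in KO-labelled OIR (-0.33 ± 0.08, adjusted p = 0.0033), a call that was lost without KO normoxia replicate 1 (-0.25, adjusted p = 0.17). Clk3, the remaining CLK kinase, had values of -0.12 ± 0.18 in the WT-labelled and -0.04 ± 0.17 in the KO-labelled comparison of OIR with normoxia.

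SR-related proteins carry serine- and arginine-rich stretches without the standard SR domain layout. In KO-labelled retinas 7 of the 19 fell with OIR and 0 rose. Pnisr fell by 0.54 ± 0.08 on the log2 scale (adjusted p = 7.7e-09), Luc7l3, a U1-associated protein, fell by 0.50 ± 0.07 (adjusted p = 3.1e-10) and Snrnp70, the U1-70K protein, fell by 0.43 ± 0.08 (adjusted p = 1.1e-05). The other 4 were Son, a core protein of nuclear speckles, Pnn, Rbm39 and Rsrc2, with values of -0.25 to -0.45. In WT-labelled retinas 1 of the 19 rose, Pnisr (0.40 ± 0.12, adjusted p = 0.039), and the call was lost in 10 of the alternative settings. Without WT OIR replicate 3 Pnisr was at 0.64 ± 0.10, 7 of the 19 rose and 0 fell.

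Of the 12 other minor spliceosome proteins in the table, Snrnp35, the U11/U12-35K protein, rose in WT-labelled OIR (0.98 ± 0.28, adjusted p = 0.020) and Snrnp25 rose in KO-labelled OIR (0.55 ± 0.17, adjusted p = 0.026), calls that were lost in 4 and 7 of the alternative settings. Without WT OIR replicate 3 Snrnp35 was at 0.82 ± 0.31 (adjusted p = 0.12). Snrnp48, which carries the tandem element printed above, had values of 0.13 ± 0.15 and -0.08 ± 0.13 in the WT-labelled and KO-labelled comparisons and passed in neither.

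The hnRNP proteins, which often oppose SR proteins at splice sites, had 4 of 29 genes higher and 0 lower in KO-labelled OIR, and 5 higher and 2 lower with edgeR's filter on expression. Among them, Hnrnpl rose by 0.40 ± 0.10 (adjusted p = 0.0031), Hnrnpul1 by 0.38 ± 0.10 (adjusted p = 0.0045) and Hnrnpa0 by 0.31 ± 0.09 (adjusted p = 0.014). The call of Hnrnpl was lost in 2 of the alternative settings, among them without KO OIR replicate 2 (0.29, adjusted p = 0.13). That of Hnrnpul1 was lost in 3. Cirbp, a cold-inducible RNA-binding protein, rose with OIR under both labels, by 0.81 ± 0.13 in WT-labelled retinas (adjusted p = 1.5e-07) and by 0.90 ± 0.09 in KO-labelled ones (adjusted p = 1.5e-22). It passed in every alternative setting of both comparisons. Rbm3, the other cold-inducible RNA-binding protein listed, had values of 0.66 ± 0.32 and 0.63 ± 0.28 and passed in neither.

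Of the 8 nuclear long noncoding RNAs, 4 fell and 0 rose in KO-labelled OIR. Meg3 fell by 0.97 ± 0.06 (adjusted p = 3.4e-49), Kcnq1ot1 by 0.93 ± 0.10 (adjusted p = 3.0e-18) and Malat1, the abundant RNA of nuclear speckles, by 0.56 ± 0.05 (adjusted p = 3.4e-26), with Snhg11 at -0.69 ± 0.09. In WT-labelled OIR, Kcnq1ot1 rose by 0.74 ± 0.14 (adjusted p = 9.5e-06) and without replicate 3 it was at 0.97 ± 0.11 and 5 of the 8 rose. In normoxia 3 of the 8 were higher in the KO-labelled libraries, among them Kcnq1ot1 by 0.91 ± 0.09 (adjusted p = 4.4e-18) and Meg3 by 0.48 ± 0.06 (adjusted p = 2.1e-13). Their part in the members' values was not tested.

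Between the labels, 1 of the 72 other splicing genes rose in KO-labelled normoxia, Pnisr (0.40 ± 0.08, adjusted p = 0.00017), and 0 fell. In OIR 4 fell, KO-labelled against WT-labelled, and 0 rose: Luc7l3 (-0.69 ± 0.12, adjusted p = 4.6e-06), Pnisr (-0.57 ± 0.13, adjusted p = 0.0025), Prpf4b (-0.57 ± 0.13, adjusted p = 0.0026) and Pnn (-0.62 ± 0.14, adjusted p = 0.0062). With DESeq2 or either filter on low counts 0 of the 72 passed in that comparison, and without WT OIR replicate 3 there were 15. Without that library Luc7l3 was at -0.99 ± 0.09, Pnisr at -0.81 ± 0.10, Prpf4b at -0.79 ± 0.10 and Pnn at -0.88 ± 0.13.

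**Figure D3:**
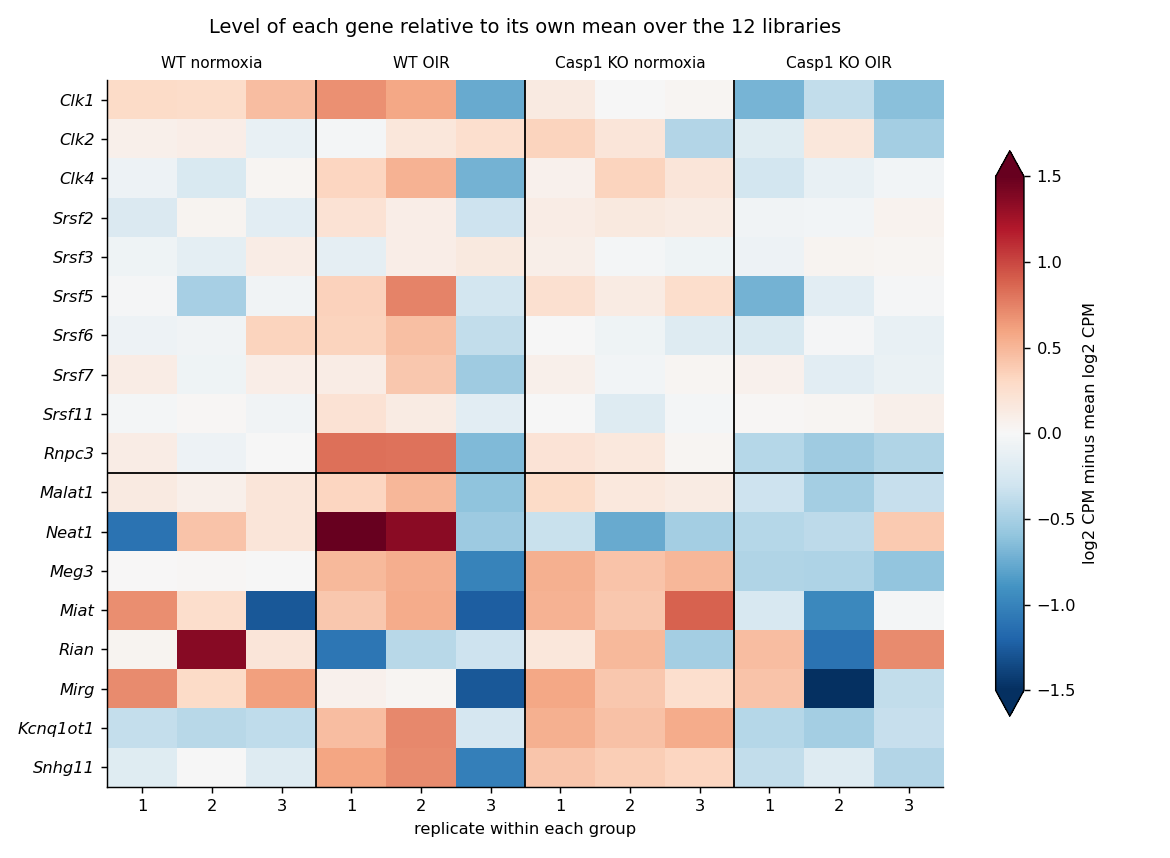
Log2 CPM of the 10 members (upper block) and 8 nuclear long noncoding RNAs (lower block) minus each gene's mean over the 12 libraries, with 1 column per library. Red is above the gene's mean and blue below, on a scale that saturates at 1.5. WT OIR replicates 1 and 2 are mostly red and replicate 3 and the 3 KO-labelled OIR libraries are mostly blue in both blocks.

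The pattern of the set was summarised by the median over the members of log2 CPM centred on each gene's own mean. Srsf7, Srsf6 and Srsf2 lay closest to it, with root mean square distances of 0.12, 0.13 and 0.14 over the 12 libraries. Clk1 lay farthest, at 0.34, a distance like that of the median gene among the 11039 ranked (0.34). Of genes outside the set, the 5 closest were Upf3b, a factor of nonsense-mediated decay (0.07), Mat2a, the S-adenosylmethionine synthetase gene (0.08), Gpatch8 (0.09), Tia1, an RNA-binding splicing regulator (0.10), and Akap8l (0.10). Mat2a, which itself is known for a detained intron, stood at group means of 505 CPM in WT-labelled normoxia, 603 in WT-labelled OIR, 537 in KO-labelled normoxia and 499 in KO-labelled OIR.

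Promoter sequences from RefSeq on GRCm38.p6, 300 bases long and reaching from before to shortly after the start of the gene, were matched for 9 of the 10 members, all but Clk1. The letters of 8 elements were searched on both strands. CCGGAAG, the core of ETS factor sites, was present in 4 of the 9 (Rnpc3, Srsf5, Srsf7 and Srsf11), against 8.86% of 32851 promoters. GGGCGG, the SP1 element, was present in 7 of the 9, against 35.7%. The hypoxia element core ACGTG was present in Clk2 and Srsf6, against 19.6% of promoters, and the cAMP element TGACGTCA in Clk4, against 1.79%. CCAAT was present in 3 members (37.4% of promoters), TATAAA in 2 (13.6%) and the E-box CACGTG in Clk2 (7.15%). The heat shock letters TTCTAGAA were present in none (1.1%). The E-box of Clk2 contains ACGTG, and another ACGTG lies outside it in the same promoter. A match is a description of the letters, not a binding site.

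The promoters of Rnpc3 and Srsf5 are shown, and both hold CCGGAAG, in capitals here on either strand. These 2 members were picked because they passed the edgeR threshold in 4 of the 5 comparisons, beside 0.575% to 4.64% of all genes. The comparisons share libraries, and the members were chosen with such differences in view, so nothing is read from that count.
Rnpc3, chr3:113630100-113630399, minus strand: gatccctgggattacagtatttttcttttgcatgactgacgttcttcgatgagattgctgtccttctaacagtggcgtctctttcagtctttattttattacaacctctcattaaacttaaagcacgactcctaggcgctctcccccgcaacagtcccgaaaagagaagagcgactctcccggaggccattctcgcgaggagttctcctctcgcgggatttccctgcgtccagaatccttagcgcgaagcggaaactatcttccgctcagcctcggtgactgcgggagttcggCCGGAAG
Srsf5, chr12:80945249-80945548, plus strand: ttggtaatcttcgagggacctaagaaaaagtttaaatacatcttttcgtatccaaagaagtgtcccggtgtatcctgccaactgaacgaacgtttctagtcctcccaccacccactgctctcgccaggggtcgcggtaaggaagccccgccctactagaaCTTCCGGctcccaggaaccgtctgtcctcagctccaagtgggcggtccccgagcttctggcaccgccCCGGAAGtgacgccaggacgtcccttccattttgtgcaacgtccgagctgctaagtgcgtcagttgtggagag
Rnpc3 held 1 match, at the last bases of the window, and Srsf5 held 2, 1 on each strand.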

How the data were processed

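Retinal total RNA from 12 libraries in 4 groups of 3 was sequenced with QuantSeq 3′ tag libraries, as 75-base single reads. Per the submitters' processing notes, STAR 2.7.5a, HTSeq 0.6.1, edgeR and the mm10 build were used. The authors deposited a table of whole-number read counts per gene, not normalized. The annotation and strand setting behind it are not given in the sources used here. A read does not separate isoforms that share an end, and PCR copies were not marked, so a floor from 3 counts covers counting error only.

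From these counts, levels were computed as CPM with TMM scaling over the 12 libraries. Differences were tested with edgeR 4.0.16 (quasi-likelihood, the older method) in R 4.3.3, leaving out genes without any count. For 2 groups the fit held 6 libraries, and for the interaction all 12. Benjamini-Hochberg adjustment covered all genes of a fit, with a threshold of 0.05. Standard errors are the log2 fold change over the root of F. They draw on spread shared across genes and depend on the setting. For Pnisr in WT-labelled OIR the standard error was 0.12 here, 0.17 with edgeR's filter on expression and 0.29 with DESeq2. Log2 fold changes carry a prior count of 0.125. The scripts were tested on simulated data. Alternatives were DESeq2 1.42.0, other scalings, filters, the newer quasi-likelihood method, a replicate block, 1 fit over all libraries, a prior count of 2, thinning of the deepest library and leaving out each library.

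Members and lists were chosen with earlier results of these data known. Named genes were the 10 members, the called genes of each wider list up to 3 each way with the smallest p, the 5 genes closest to the members' profile, and Casp1. Some genes the rule names are not reported here. Others, such as Clk3, Snrnp48, Rbm3 and further called genes, were chosen after their values were seen. Sets of genes were described by counts and medians only. Replicate numbers were the same in each group, but deviations of same-numbered libraries correlated by -0.05 to 0.17 over 11039 genes, so they were not taken as pairs. Gene positions, introns and transcripts came from a GENCODE annotation on GRCm38, which the deposited counts carry no coordinates to check against, and promoters from RefSeq on GRCm38.p6.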

Additional observations from a re-analysis of the deposited data

Results flagged for a closer look

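For 9 genes of the wider lists the OIR difference itself differed between the labels in the test of that difference (edgeR quasi-likelihood test over the 12 libraries, adjusted p under 0.05). Values are the log2 OIR difference in KO-labelled minus that in WT-labelled retinas. Among the other splicing genes it was -0.96 for Pnisr, -0.69 for Pnn, -0.61 for Luc7l3, -0.60 for Srek1 and -0.58 for Prpf4b. Among the nuclear long noncoding RNAs it was -1.69 for Kcnq1ot1, -1.14 for Meg3, -1.09 for Snhg11 and -0.59 for Malat1. Of the 21 alternative settings, Kcnq1ot1 passed in all, Pnisr and Meg3 failed in 1 each, Snhg11 and Malat1 in 3 each, Luc7l3 in 5, Pnn in 8, Prpf4b in 9 and Srek1 in 15. Without WT OIR replicate 3 all 9 passed, with values from -1.92 for Kcnq1ot1 to -0.69 for Srek1. The lists were drawn up with earlier results of these counts known.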

How the results depend on the processing

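No log2 fold change of a member that passed the threshold changed sign under an alternative, while some that did not pass, such as Clk1 in WT-labelled OIR, did. The 830 alternative values of single members each moved by less than 1 SD of that member's log2 CPM within groups. That SD includes WT OIR replicate 3, so it is a wide measure and a smaller move does not show that a value was stable. Without that library, Rnpc3 went from 0.45 to 0.80 and Clk1 from -0.05 to 0.28 in WT-labelled OIR. Counts of calls depended on the setting, and the cause was not tested except where libraries were left out. In WT-labelled OIR the members passing went from 2 to 0 with DESeq2, either low-count filter or the replicate block. They went to 1 with the newer quasi-likelihood method. The other splicing genes went from 3 to 1 in each of these 5 settings. Over all genes, 794 of 22853 passed with the block and 1075 of 22853 with the newer method, and the others are given above. Since the replicate numbers pair no samples, the block value counts only as a setting. It left the members at 3, 0, 2 and 2 calls in the KO-labelled, normoxia, OIR and interaction comparisons. Over all genes the block gave 1028 of 22387, 190 of 22480, 128 of 22774 and 290 of 24484 in the same order. In normoxia between labels, members went from 0 to 1 and other genes from 1 to 2 with library size alone or DESeq2. Members also went to 1 with the newer method. Of all 22480 genes, 243 passed with library size alone, 444 with DESeq2 and 324 with the newer method. Between labels in OIR, DESeq2 and both filters gave 0 members (from 3) and 0 other genes (from 4). For the interaction they gave 0 members (from 2) and 1 other gene (from 5). The counts over all genes in these settings are given above. With all 12 libraries in one fit, other genes were 6 (from 13) in KO-labelled OIR and 8 (from 4) between labels in OIR. Leaving out 1 library in turn gave 0 to 3 members and 0 to 9 other genes in WT-labelled OIR, 2 to 3 and 8 to 14 in KO-labelled OIR, 0 to 1 and 1 to 2 in normoxia, 2 to 5 and 1 to 15 between labels in OIR, and 1 to 4 and 1 to 12 for the interaction. The highest counts in the WT-labelled, OIR and interaction comparisons came without WT OIR replicate 3, and the 8 without KO normoxia replicate 1. Over all genes, leaving out 1 library gave 545 to 1130 calls in WT-labelled OIR and 704 to 866 in KO-labelled OIR. It gave 128 to 199 in normoxia, 47 to 815 between labels in OIR and 174 to 597 for the interaction. Library totals started at 3391203 counts, and Clk2 had 51 to 401 counts per library. Its standard error on the log2 scale was 0.28 in KO-labelled OIR, against 0.08 for Srsf11. For the interaction it was 0.39, against 0.15 for Srsf11.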
